A study of Mus musculus with 8 samples.

Results

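Interferon-stimulated genes were examined in mouse trigeminal ganglia, the paired clusters of sensory neuron cell bodies that serve the face. The members were 51 genes named by symbol, and 47 of them had a probe set annotated to that symbol alone, out of 18193 genes measured in this way. Isg15, Oas1g, Ifi44 and Gbp4 had no such probe set and were not analysed here. No measured member was removed by a filter on low values, and 45 of the 47 had a mean of at least 6, a log2 level below which values were taken as near background. Where a gene had several probe sets, the one with the highest mean over the 8 arrays represented it.

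The daDREAM group held 4 arrays of ganglia from transgenic mice whose sample titles all carry the tag tg16, and the control group held 4 arrays of mice labelled control. DREAM is encoded by Kcnip3 and represses transcription until calcium releases it from DNA, and daDREAM is a mutant form made to be dominant active. Both groups are labelled as adult males of a C57B/6XCBA background. The labels call the 4 arrays of a group biological replicates. What drives the transgene, whether other lines were made and how many animals gave each RNA are not stated in the labels, so a p-value covers the spread among these 8 arrays and may partly reflect technical variation. All values are log2 expression values from RMA (robust multi-array average), without a true zero, and differences are daDREAM minus control.

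The arrays were alike in overall level, with medians from 7.09 to 7.13, and correlations between arrays ran from 0.983 to 0.996. Markers of trigeminal neurons were bright, with Nefh, a neurofilament subunit, at 13.89 to 13.96 on daDREAM arrays and 13.66 to 13.87 on control arrays. Of 9 such markers, 0 passed the limma test. Against the label of male animals, Xist, the RNA of the inactive X chromosome, had values of 11.51 on daDREAM replicate 4, 10.20 on control replicate 3 and 11.72 on control replicate 4. The other 5 arrays read 6.10 to 6.43 (daDREAM) and 6.41 to 6.49 (control). The pituitary hormone gene Gh was highest on daDREAM replicates 4 and 3 and control replicate 3, at 13.43, 12.50 and 11.15. The muscle actin gene Acta1 was highest on control replicates 3 and 1, at 9.40 and 9.20. Gfap, a filament gene of astrocytes and of reactive satellite glia, read 10.78, 10.89, 11.24 and 10.77 on daDREAM arrays, against 8.63, 10.20, 10.22 and 8.29 on control arrays. These groups did not overlap, but Gfap did not pass (difference 1.59, limma adjusted p = 0.0660).

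Interferons are secreted antiviral cytokines. Type I interferons bind the receptor pair IFNAR1 and IFNAR2, whose kinases activate a complex of STAT proteins with IRF9 that binds a DNA element called ISRE. Type II interferon acts through another receptor and a STAT dimer that binds the GAS element, and the GTPase families of the IRG and GBP type are among its strongest targets. Many of the induced genes are also expressed at a low tonic level in tissue without infection.

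Interferon-stimulated genes that passed the test were all lower in daDREAM than in control ganglia. Of the 47 measured members, 12 fell, 0 rose and 35 did not pass the test, where a gene passed at a limma adjusted p under 0.05 over all 18193 genes. Those that fell were Iigp1, Usp18, Ifit1, Ifit3, Gbp2, Gbp3, Oasl2, Rtp4, Irgm1, Xaf1, Igtp and Parp9. Among all genes 1.02% passed as lower and 0.984% as higher, against 25.5% of the members as lower. The members were chosen with earlier results of these data known, so their excess over all genes is a description and not a test. At an unadjusted p under 0.05 the same limma fit gave 33 members, of which 1 was higher, against 18.2% of all genes. The median difference was -0.32 over the 47 members, -0.76 over the 12 that fell and -0.26 over the other 35, and the median over all genes was within 0.02 of 0 under every setting examined. The difference was below 0 in 43 members and in 9103 of the 18193 genes, and Isg20, Irf8, Stat2 and Bst2 were the members above 0. In a bulk sample, fewer cells of a type and less RNA per cell cannot be told apart.

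All 4 daDREAM arrays lay below all 4 control arrays in 25 of the 47 members, or 53.2%, while 5.73% of all genes showed such a separation. Given how the members were chosen, this share too is only a description. No member separated in the opposite direction. With the 3 arrays carrying Xist left out (3 daDREAM and 2 control arrays remaining), 9 members passed, all lower, and the median difference was -0.34. Omitting the 3 Gh-rich arrays (2 daDREAM and 3 control arrays remaining), 3 members passed, Iigp1, Usp18 and Oasl2, and the median was -0.29. Without the 2 control arrays with the most Acta1, 6 members passed and the median was -0.33.

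**Figure D1:**
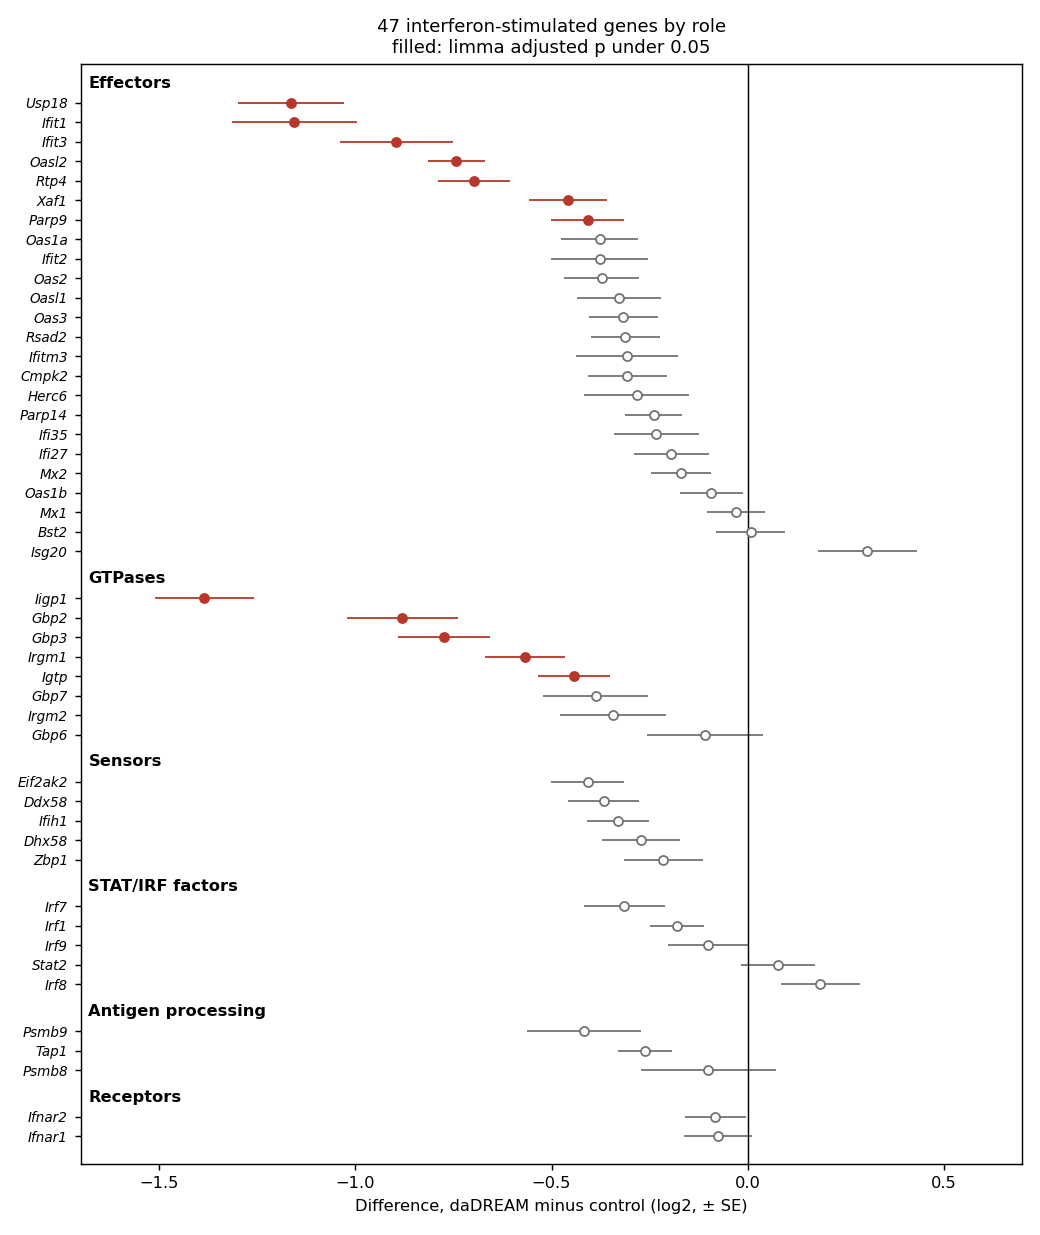
Differences in log2 RMA value (daDREAM minus control, x axis, bars ± SE of the limma fit) for the 47 measured members, grouped by role. Filled points passed the limma test over all genes. The 12 that passed all lie left of 0, 7 of them effectors and 5 GTPases, and no sensor, factor, antigen processing gene or receptor is filled.

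The effectors are the proteins that act on viral RNA, on viral assembly or on other proteins. Of 24 measured effectors, 7 fell, 0 rose and 17 did not pass, and their median difference was -0.32. Ifit1, which binds foreign RNA lacking the host cap modification, read 7.32, 7.44, 7.36 and 7.06 on daDREAM arrays, against 8.41, 8.55, 8.86 and 7.98 on control arrays. Every daDREAM array lay below every control array, with a gap of 0.54. Ifit1 averaged 7.30 ± 0.16 in daDREAM and 8.45 ± 0.37 in control ganglia (SD, n = 4 each), a 2.23-fold fall (SE 0.16, limma adjusted p = 0.00239).

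Ifit3, a partner of Ifit1 in RNA-binding complexes, read 8.91, 9.02, 8.70 and 8.32 in daDREAM ganglia, against 9.37, 9.65, 9.71 and 9.80 in control ganglia. It fell 1.86-fold (SE 0.14, limma adjusted p = 0.00696), and daDREAM replicate 4 was the lowest array for both genes. Ifit2, the third member of the family, read 8.67 to 9.12 on daDREAM arrays and 8.98 to 9.46 on control arrays, which overlap. Its difference was -0.38 (limma adjusted p = 0.156). The Ifit2 minus Ifit3 value, between neighbours on chromosome 19, was 0.52 higher in daDREAM arrays (exact two-sided permutation p = 0.0286, the smallest that 4 against 4 arrays allow). Over the 12 pairs of neighbouring members tested in this way the adjusted p was 0.114, so no pair passed. With this smallest p, a single pair could not pass over 12 pairs, so the adjusted value says little about whether neighbours differ.

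Usp18 removes the ubiquitin-like protein ISG15 from its targets and also blocks signalling at the type I receptor. It read 6.53, 6.59, 6.54 and 6.27 on daDREAM arrays, against 7.47, 7.69, 8.05 and 7.38 on control arrays. Usp18 fell 2.24-fold (SE 0.14, limma adjusted p = 0.000731), and the gap of 0.79 between the groups was larger than the range of either group. Herc6, the mouse ligase that attaches ISG15, differed by -0.28 (limma adjusted p = 0.292). Its 4 probe sets read between -0.28 and 0.10, and none passed over probe sets.

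The 2′-5′ oligoadenylate synthetases detect double-stranded RNA, and many of them activate RNase L. The Oasl genes are their relatives. Oasl2 read 8.52, 8.54, 8.34 and 8.39 in daDREAM ganglia, against 9.22, 9.13, 9.17 and 9.24 in control ganglia. These ranges are narrow and 0.59 apart, and Oasl2 fell 1.67-fold (SE 0.07, limma adjusted p = 0.000197). Oas1a, Oas2, Oas3 and Oasl1 had groups that did not overlap, with differences from -0.38 to -0.32, and none passed (limma adjusted p from 0.0809 to 0.154). Oas1b, whose product is truncated in most laboratory strains, differed by -0.09. Oas1a belongs to a family of closely similar genes, so its signal may include other copies. Oasl1 lies next to Oasl2 on chromosome 5, and the Oasl2 minus Oasl1 value differed by -0.42 between daDREAM and control arrays (exact permutation p = 0.0286, adjusted p = 0.114 over 12 pairs).

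Rtp4, a chaperone of receptors at the cell surface that interferon induces, read 8.09, 8.07, 7.95 and 8.26 on daDREAM arrays, against 8.62, 8.75, 8.95 and 8.84 on control arrays. It fell 1.62-fold (SE 0.09, limma adjusted p = 0.00183). A second Rtp4 probe set read 5.59 in daDREAM and 5.53 in control ganglia, both near background, with a difference of 0.06. Xaf1, an antagonist of inhibitors of apoptosis, read 9.85, 9.64, 9.45 and 9.60 in daDREAM ganglia, against 10.29, 10.07, 9.95 and 10.06 in control ganglia. It fell 1.37-fold (SE 0.10, limma adjusted p = 0.0407). A second Xaf1 probe set, near background and with overlapping groups, differed by -0.20 and did not pass (limma adjusted p = 0.269 over probe sets). Parp9, which acts with the ligase Dtx3l in the antiviral response, read 7.32, 7.28, 7.11 and 7.22 on daDREAM arrays, against 7.70, 7.53, 7.48 and 7.85 on control arrays.

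The fall of Parp9 was 1.33-fold (SE 0.09) and lay close to the threshold (limma adjusted p = 0.0498). Leaving out single arrays gave Parp9 an adjusted p from 0.0380 to 0.148, under the threshold only without control replicate 3. Xaf1 ranged from 0.0256 to 0.123 and passed only without daDREAM replicate 1 or control replicate 3. In both genes the groups remained apart by 0.10 or more with all arrays. Ifit1, Ifit3, Usp18, Oasl2 and Rtp4, and the GTPase genes Iigp1, Gbp2 and Gbp3, passed whichever single array was left out.

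**Figure D2:**
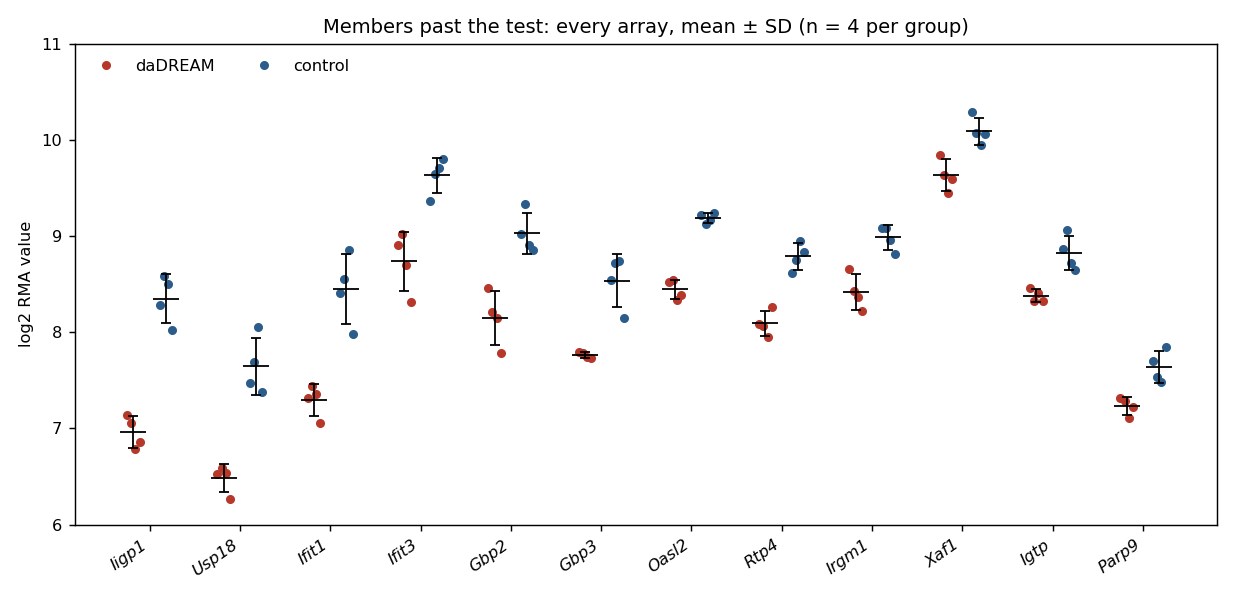
log2 RMA values (y axis) of the 12 members that passed the test, ordered by size of difference. Each point is 1 array, with 4 daDREAM arrays left of 4 control arrays for each gene, and black bars give the mean ± SD. In each of the 12 genes the highest daDREAM array lies below the lowest control array, by 0.10 in Xaf1 and by 0.88 in Iigp1.

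The remaining effectors did not pass. Rsad2 (viperin), which makes a chain-terminating nucleotide, and Cmpk2, the kinase encoded beside it on chromosome 12, had groups that did not overlap, with differences of -0.31 each (limma adjusted p = 0.106 and 0.154). The dimmer Rsad2 probe sets differed by 0.04 and -0.29, with overlapping groups. The dimmer Cmpk2 probe set read 8.36 in daDREAM and 8.41 in control ganglia, also with overlap (difference -0.045, adjusted p = 0.797 over probe sets). None of these further sets passed. Ifitm3, which blocks viral entry at endosomes, read 10.83, 10.61, 10.44 and 10.67 on daDREAM arrays, against 10.68, 11.29, 11.01 and 10.80 on control arrays, with overlapping ranges (difference -0.31, limma adjusted p = 0.243). Parp14 differed by -0.24, Ifi35 by -0.23, Ifi27 by -0.20 and Mx2 by -0.17. Ifi27 was the brightest member, with a mean of 11.52 over the 8 arrays. Bst2 (tetherin), which holds budding virions at the membrane, differed by 0.01, and the sign turned under several settings.

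Mx1, a dynamin-like GTPase that is defective in most laboratory strains, read 5.64, 5.63, 5.68 and 5.68 in daDREAM ganglia, against 5.73, 5.66, 5.81 and 5.55 in control ganglia. Both groups were near background, so a change in Mx1 could be missed. Isg20, an exonuclease, had the highest difference of all members at 0.31. It read 7.53, 7.88, 7.44 and 7.42 on daDREAM arrays, against 7.25, 7.53, 7.01 and 7.26 on control arrays, and did not pass (limma adjusted p = 0.237).

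The GTPase role held interferon-inducible GTPases of the IRG and GBP families, which attack the vacuoles of intracellular pathogens. Of 8 measured in this role, 5 fell, 0 rose and 3 did not pass, and the median difference of -0.51 was the lowest of the 6 roles. Mx1 and Mx2 were counted among the effectors instead. Iigp1 (Irga6), an effector GTPase of the IRG family, had the lowest difference of all members. It read 7.14, 7.06, 6.79 and 6.86 on daDREAM arrays, against 8.28, 8.59, 8.50 and 8.02 on control arrays. The groups were 0.88 apart, and Iigp1 fell 2.61-fold (SE 0.13, limma adjusted p = 0.000102). Its second probe set read 6.57 in daDREAM and 7.12 in control ganglia (difference -0.56, adjusted p = 0.149 over probe sets).

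Irgm1, a regulatory IRG protein that keeps effector GTPases off host membranes, read 8.66, 8.43, 8.37 and 8.22 in daDREAM ganglia, against 9.09, 9.09, 8.96 and 8.81 in control ganglia. It fell 1.48-fold (SE 0.10, limma adjusted p = 0.0134). Igtp (Irgm3), another regulator of this family, read 8.46, 8.33, 8.41 and 8.33 on daDREAM arrays, against 8.87, 9.06, 8.72 and 8.65 on control arrays, and fell 1.36-fold (SE 0.09, limma adjusted p = 0.0330). Neither gene overlapped between the groups, but both calls depended on single arrays. Irgm1 did not pass without daDREAM replicate 3 (adjusted p = 0.0544) or control replicate 1 (adjusted p = 0.0542), and Igtp passed only without control replicate 3 or 4 (range 0.0175 to 0.115 over the 8 omissions). Irgm2, adjacent to Igtp on chromosome 11, differed by -0.34 with overlapping groups (limma adjusted p = 0.219), and passed without control replicate 4 (adjusted p = 0.0145). The Igtp minus Irgm2 value differed by -0.10 between the groups (exact permutation p = 0.486).

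Guanylate-binding proteins (GBPs) coat pathogen vacuoles and bacteria. Gbp2 read 8.46, 8.21, 8.15 and 7.78 on daDREAM arrays, against 9.02, 9.33, 8.91 and 8.86 on control arrays, and fell 1.84-fold (SE 0.14, limma adjusted p = 0.00681). Its second probe set fell by 0.78 (adjusted p = 0.0394 over probe sets). Gbp3 read 7.80, 7.78, 7.74 and 7.73 in daDREAM ganglia, against 8.54, 8.72, 8.74 and 8.15 in control ganglia, and fell 1.71-fold (SE 0.12, limma adjusted p = 0.00484). The daDREAM arrays of Gbp3 were nearly equal, while control replicate 4 lay apart from the other controls. Gbp7, which lies beside Gbp3 on chromosome 3, differed by -0.39 at its brighter probe set (limma adjusted p = 0.173) and by -0.43 at the other, which passed over probe sets (adjusted p = 0.0444). Without control replicate 4 the brighter set passed too (adjusted p = 0.0269). Gbp6, which lies on chromosome 5, differed by -0.11 at its brighter probe set (limma adjusted p = 0.725). Its dimmer set differed by -0.40 with overlapping groups (adjusted p = 0.339 over probe sets).

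Within each group the families followed the arrays differently. Control replicate 4 was the lowest control array for all 8 IRG and GBP genes and the highest control array for all 6 measured Oas and Oasl genes. Among the effectors it was the lowest control array for Mx1 (5.55) and the highest for Mx2 (6.94). daDREAM replicate 1 was the highest daDREAM array for all 8 IRG and GBP genes and for 0 of the 6 Oas and Oasl genes. It was the highest daDREAM array for 23 of all 47 members, and control replicate 4 the lowest control array for 19. A tie was counted for the lower-numbered array. For 12 genes of MHC class I and its processing, members included, these counts were 9 and 5. The order is therefore not particular to the GTPases. Genes of 1 array share its RNA, and this order was noticed after the values were seen, so no test is given. Over all 47 members, the median deviation from a gene's own mean ran from -0.20 to -0.08 on daDREAM arrays and from 0.11 to 0.19 on control arrays. Between 33 and 44 members lay below their own mean on each daDREAM array, against 5 to 12 on each control array.

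**Figure D3:**
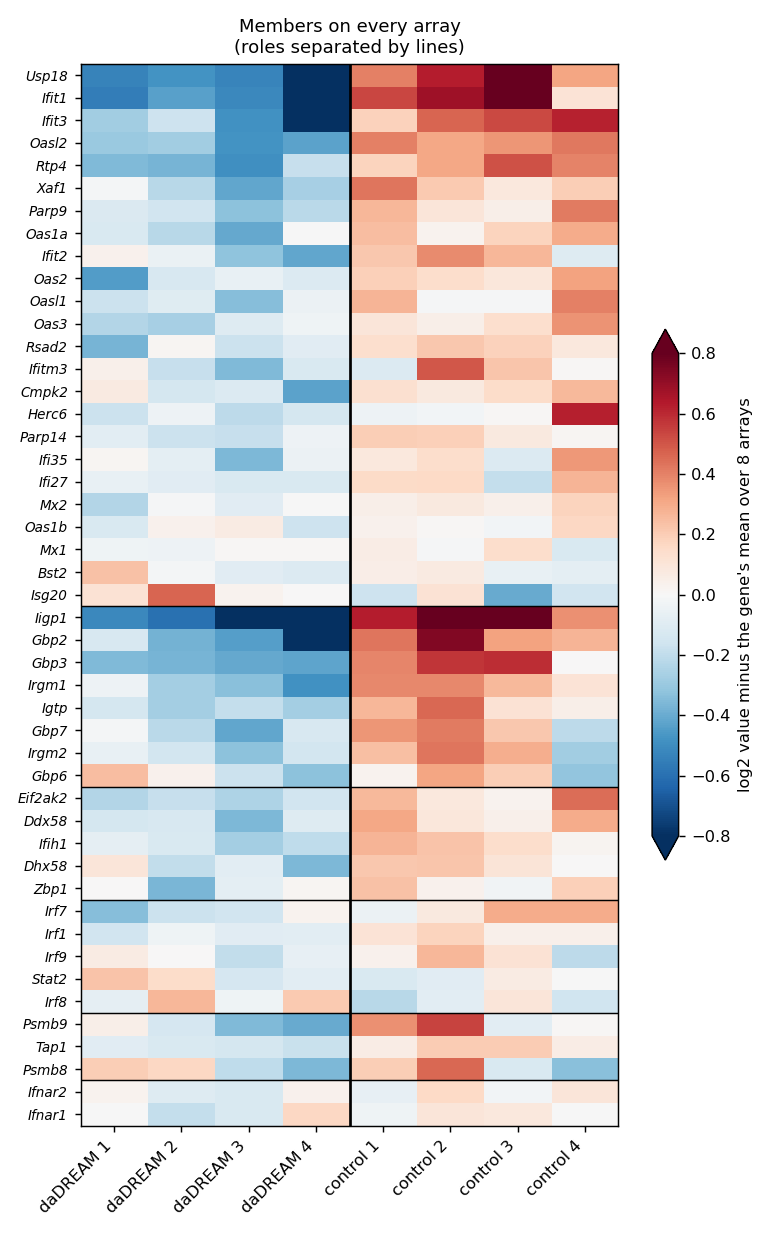
Deviation of each log2 RMA value from the gene's mean over 8 arrays (colour), with the 47 members down the page, separated by role (arrows on the colour bar mark values beyond it), and the 4 daDREAM arrays left of the 4 control arrays. daDREAM arrays are mostly blue and control arrays mostly red, and control replicate 4 is the lowest control for all 8 genes of the GTPase role.

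Promoter sequence is shown because the ISRE is the element through which the type I pathway acts on these genes. RefSeq promoter windows of build GRCm38.p6, from 250 bases before to 50 bases after a gene's start, were available for 37 of the 51 members. They were searched on both strands for the ISRE core, which was taken as GAAA, any 2 bases and GAAA, or its reverse complement, and overlapping matches were kept. A match was present in 19 of the 37 members (51.4%), against 1079 of 27025 genes with a window (3.99%). The members are named for their response to interferon, so this excess says nothing of these arrays. Among members that fell and had a window the count was 6 of 8 (75.0%), and among measured members that did not pass it was 11 of 26 (42.3%). These counts include genes of the same family, and their difference was not tested. Iigp1, Usp18, Rtp4 and Parp9 fell but had no window. All matches of the 6 that fell began before the start. Among those that did not pass, Ifih1, Ddx58, Ifitm3 and Eif2ak2 had matches only after it, at positions 3 to 33. The GAS core TTCNNNGAA was found in 15 of 37 members (40.5%), against 9.55% of all genes. It was found in 1 of 8 members that fell (12.5%) and in 14 of 26 that did not pass (53.8%). Overlap between the ISRE and GAS matches was not counted.

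The stretches below hold the ISRE matches of the 6 members that fell, given 5′ to 3′ on the gene's strand with the match in capitals. For Ifit1 they cover chr19:34640765-34640833 (+ strand), for Ifit3 chr19:34583353-34583436 (+), for Gbp2 chr3:142620584-142620633 (+), for Gbp3 chr3:142559979-142560034 (+), for Igtp chr11:58199502-58199551 (+) and for Irgm1 chr11:48871421-48871470 (-). Ifit1 and Ifit3 hold a pair of separate matches, and in Gbp3 and Irgm1 overlapping matches form a longer run.
Ifit1: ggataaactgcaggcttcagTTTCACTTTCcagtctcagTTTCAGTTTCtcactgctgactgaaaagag
Ifit3: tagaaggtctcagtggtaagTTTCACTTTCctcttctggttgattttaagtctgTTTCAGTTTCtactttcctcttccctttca
Gbp2: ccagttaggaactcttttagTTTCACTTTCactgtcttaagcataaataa
Gbp3: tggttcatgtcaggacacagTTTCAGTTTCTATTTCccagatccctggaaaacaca
Igtp: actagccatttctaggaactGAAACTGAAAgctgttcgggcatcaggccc
Irgm1: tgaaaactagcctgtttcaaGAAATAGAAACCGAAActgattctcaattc

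Matches of the same kind were present upstream of members that did not pass, of which Oas1a (chr5:120907526-120907565, - strand), Rsad2 (chr12:26456543-26456592, -), Stat2 (chr10:128270256-128270305, +) and Bst2 (chr8:71537567-71537622, -) are given for comparison. Relative to the start, the run in Oas1a begins at position -20 and the match in Stat2 at -222. Oasl2 and Xaf1 fell without these letters in their windows. A match describes the letters only and says nothing of binding in the ganglion.
Oas1a: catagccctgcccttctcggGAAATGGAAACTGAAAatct
Rsad2: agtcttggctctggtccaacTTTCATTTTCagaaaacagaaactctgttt
Stat2: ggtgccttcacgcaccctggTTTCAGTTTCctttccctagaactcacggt
Bst2: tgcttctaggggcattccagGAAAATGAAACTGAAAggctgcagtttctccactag

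The RNA and DNA sensors start the response when foreign nucleic acid appears. None of the 5 passed, and all 5 differences were below 0, with a median of -0.33. Eif2ak2 (PKR), the kinase that halts translation on double-stranded RNA, read 7.56, 7.61, 7.55 and 7.64 on daDREAM arrays, against 8.05, 7.88, 7.82 and 8.24 on control arrays. The groups did not overlap, and the difference of -0.41 was just outside the threshold (limma adjusted p = 0.0513 over genes, 0.0343 without control replicate 3, and 0.0429 for the same values over probe sets). The second probe set of Eif2ak2 fell by 0.56 (adjusted p = 0.00152 over probe sets), while the third read -0.09.

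Ddx58 (RIG-I), the sensor of short RNA with a 5′ triphosphate, differed by -0.37 (limma adjusted p = 0.0692), and its second probe set fell by 0.44 (adjusted p = 0.0110 over probe sets). Ifih1 (MDA5), the sensor of long double-stranded RNA, read 7.82, 7.77, 7.62 and 7.69 in daDREAM ganglia, against 8.16, 8.12, 8.03 and 7.91 in control ganglia. The Ifih1 groups did not overlap, the difference was -0.33 (limma adjusted p = 0.0640), and it passed without control replicate 4 (adjusted p = 0.0314). Dhx58 (LGP2), at a mean of 6.13 over the arrays, differed by -0.27, and Zbp1, the sensor of Z-form nucleic acid, by -0.22. Of the 32 further probe sets of members, 4 passed, all lower (2.74% of all 45037 probe sets passed and 1.32% passed as lower), belonging to Gbp2, Gbp7, Ddx58 and Eif2ak2.

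Among the transcription factors that carry the signal, none of 5 passed, with a median of -0.10. Irf7, which amplifies type I interferon production, read 6.58, 6.75, 6.77 and 6.95 on daDREAM arrays, against 6.87, 7.00, 7.22 and 7.22 on control arrays (difference -0.32, limma adjusted p = 0.155). daDREAM replicate 4 lay among the controls. Irf9, the DNA-binding part of the ISRE complex, read 8.18, 8.12, 7.92 and 8.05 in daDREAM ganglia, against 8.15, 8.38, 8.23 and 7.91 in control ganglia, and differed by -0.10 (adjusted p = 0.629). Stat2, its partner, read 8.31, 8.23, 7.95 and 8.00 on daDREAM arrays, against 7.96, 7.99, 8.15 and 8.08 on control arrays, a difference of 0.08 (adjusted p = 0.687). The groups overlapped in both genes. Irf1 differed by -0.18 without overlap (adjusted p = 0.204), and Irf8, a factor of myeloid cells, by 0.19 (adjusted p = 0.352).

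Antigen processing genes load peptides onto MHC class I. Tap1, a subunit of the peptide transporter, read 7.80, 7.77, 7.75 and 7.71 on daDREAM arrays, against 7.95, 8.09, 8.09 and 7.95 on control arrays. The groups did not overlap, and the difference of -0.26 did not pass (limma adjusted p = 0.0849), while 3 dimmer Tap1 probe sets read from 0.02 to 0.12. Psmb9 and Psmb8, catalytic subunits of the immunoproteasome encoded on both sides of Tap1 on chromosome 17, differed by -0.42 (adjusted p = 0.174) and -0.10 (adjusted p = 0.794). Psmb8 read 8.34, 8.31, 7.94 and 7.78 in daDREAM ganglia, against 8.34, 8.60, 8.02 and 7.81 in control ganglia, nearly the same range.

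The receptor chains showed no difference that passed. Ifnar1 read 8.71, 8.52, 8.59 and 8.88 on daDREAM arrays, against 8.68, 8.81, 8.80 and 8.71 on control arrays, a difference of -0.08 (SE 0.09, limma adjusted p = 0.673). Ifnar2 read 9.26, 9.13, 9.11 and 9.27 in daDREAM ganglia, against 9.17, 9.39, 9.21 and 9.33 in control ganglia, a difference of -0.08 (SE 0.08, adjusted p = 0.592). The second probe set of Ifnar1 differed by 0.21 and the further sets of Ifnar2 by -0.04 and 0.28, and none of the further receptor probe sets passed.

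Other genes of the pathway outside the 47 members were counted from lists that, like the members, were chosen with earlier results of these data known. Of 81 measured, 6 fell (7.41%) and 1 rose, and the median difference was -0.11. All 7 belonged to the 32 further interferon-induced genes, whose median was -0.21. Ddx60, a helicase related to the RNA sensors, fell by 0.82 (limma adjusted p = 0.00390) and Slfn5 of the schlafen family fell by 0.73 (adjusted p = 0.00663), each to a daDREAM mean under 6, where RMA values compress differences. The chemokines Cxcl9, Cxcl10 and Ccl5, which draw T cells and are induced by interferon, fell by 0.63, 0.44 and 0.35 (adjusted p = 0.0122, 0.0276 and 0.0313), Cxcl9 to a daDREAM mean of 5.51. Trim21, an antibody receptor in the cytosol, fell by 0.48 (adjusted p = 0.0262).

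Trim30a was the exception. The brighter of its probe sets rose by 0.83 (limma adjusted p = 0.0115), and the dimmer one differed by -0.22 (adjusted p = 0.291 over probe sets). Second probe sets of Ddx60, Slfn5, Cxcl9 and Trim21 read from -0.26 to -0.09 and none passed. The calls of Ccl5, Cxcl10, Trim21 and Cxcl9 depended on single arrays. Ccl5 passed only without control replicate 4, and Cxcl10 only without daDREAM replicate 2 or control replicate 4. Trim21 passed only without daDREAM replicate 2 or 3 or control replicate 4, and Cxcl9 passed except without control replicate 1 (adjusted p = 0.0512). Of the 7 genes in these lists, 3 passed without control replicate 1 and 4 without daDREAM replicate 1 or control replicate 3.

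Interferon genes themselves were dim, with 6 of 8 at a mean below 6 over the arrays, so a change could be missed. Ifnb1 averaged 6.22 ± 0.12 in daDREAM and 6.25 ± 0.14 in control ganglia (SD, n = 4 each). Ifng averaged 4.86 ± 0.11 in daDREAM and 4.77 ± 0.09 in control ganglia. Ifna1 differed by -0.29 with overlapping groups (limma adjusted p = 0.153). Ifna2, with a control mean of 5.33, differed by -0.28 without overlap (limma adjusted p = 0.0981). Of the 8 differences, 6 were below 0 and 2 above, with a median of -0.06. None of the 8 ligands, 4 receptors of other interferons, 13 signalling genes, 15 sensing and adaptor genes and 9 MHC class I genes passed limma. Ifngr1, the ligand-binding chain of the type II receptor, differed by -0.01 (SE 0.10). B2m, the invariant chain of MHC class I, differed by -0.28 with overlapping groups (adjusted p = 0.224).

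**Figure D4:**
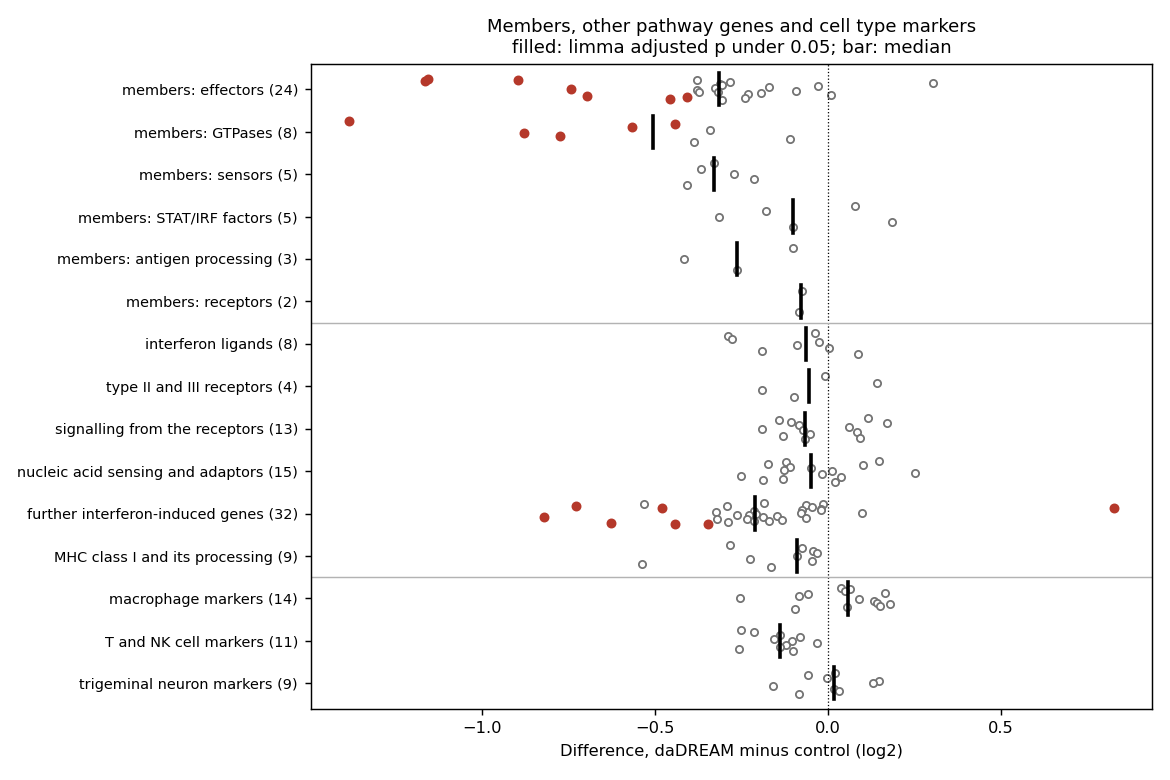
Differences in log2 RMA value (x axis, daDREAM minus control) for the members by role (top), other pathway genes (middle) and macrophage, T and NK cell and neuron markers (bottom), with the number of genes in brackets. Filled points passed limma over all genes and black bars are medians. Filled points appear among effectors, GTPases and further interferon-induced genes, and among these the median is -0.32, -0.51 and -0.21. Without filled points, the members' sensors and antigen processing genes have medians of -0.33 and -0.26, and the STAT/IRF factors -0.10. Ligands, type II and III receptors and signalling genes have medians of -0.06, -0.05 and -0.07.

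Markers of other cell types of the ganglion were read beside these values. Of 14 macrophage markers 0 passed and 10 differences were above 0, from -0.26 for Lyz2 to 0.18 for Ptprc, and their summed linear signal was 5530 to 6597 on daDREAM arrays and 5269 to 6687 on control arrays, which overlap. Of 11 T and NK cell markers 0 passed, yet all 11 differences were below 0. Their summed signal was 867 to 930 on daDREAM arrays and 938 to 1127 on control arrays, without overlap, and 6 of the 11 had a mean below 6. The differences ran from -0.26 for Gzmb, a protease of cytotoxic granules, to -0.03 for Ncr1, an NK cell receptor. Cd3e, a subunit of the T cell receptor complex, was the only one without overlap, at 6.93 to 7.12 on daDREAM arrays and 7.15 to 7.44 on control arrays (limma adjusted p = 0.158).

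Of 6 B and plasma cell markers, only Ighm, the heavy chain of immunoglobulin M, passed. Summed signal of the 6 was 701 to 803 on daDREAM arrays and 1141 to 1306 on control arrays. Ighm fell by 1.24 (limma adjusted p = 1.97e-05), and its other 10 probe sets differed by -1.15 to 0.09. Those at -1.15 and -0.97 passed over probe sets (limma adjusted p = 0.000243 and 0.00962). The rest, from -0.28 to 0.09, did not pass. Without Ighm the summed signal of the 5 was 384 to 453 on daDREAM arrays and 370 to 491 on control arrays. Of 5 markers of plasmacytoid dendritic cells, the main producers of type I interferon, 0 passed, with differences from -0.30 for Klk1 to 0.22 for Tcf4. Klk1 was the only one without overlap, at 7.89 to 8.04 on daDREAM arrays and 8.18 to 8.45 on control arrays (limma adjusted p = 0.0913). Of 5 measured markers of satellite glia and Schwann cells 0 passed, and their summed signal was 27444 to 29179 on daDREAM arrays and 23544 to 29225 on control arrays, with control replicates 3 and 4 the lowest. Their differences ran from -0.07 for Sox10, a glial transcription factor, to 0.42 for Fabp7, a lipid carrier of satellite glia (limma adjusted p = 0.217). Among 7 endothelial markers the tight junction gene Cldn5 rose by 0.57 (limma adjusted p = 0.00975) and the other 6 did not pass. The part of these cell types, and of the difference in Gfap, in the values of the interferon-stimulated genes was not tested.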

How the data were processed

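RNA of trigeminal ganglia was hybridised to 8 one-colour Affymetrix mouse arrays. For each probe set the authors deposited a log2 value, and the submitters' processing notes name RMA and affy, with no version. RMA quantile-normalizes the arrays, so a difference is relative to the bulk of genes. Of 45101 probe sets, 64 Affymetrix controls were left out, and 34945 had 1 gene symbol in the platform annotation, 932 several and 9160 none. With 4 arrays a group, precision is limited by their number.

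The test was limma's moderated fit (limma 3.58.1, R 4.3.3, Python 3.11.15), two-sided with group as the only term, adjusted by Benjamini-Hochberg over all genes and called at 0.05; further probe sets were tested in a fit over all 45037 probe sets. Neighbouring members, with at most 5 protein-coding genes between them in the RefSeq gene table, were compared by exact permutation over 70 assignments of arrays. Figures used matplotlib 3.10.9. Named genes are all members, with every array given for those past the test, the smallest p of each role and a fixed list; of other pathway genes, those past the test and Cxcl10, Ifnb1, Ifng, Ifngr1 and B2m; of markers, those past the test and the ends of the range. Other genes named were chosen after their values were seen. The members, lists and alternatives were chosen with earlier results of these data known. Listed genes without a single-symbol probe set were not analysed here, so 81 of 100 other pathway genes were counted.

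Same-numbered arrays of the groups are not stated to share an animal, litter or day. Other settings tried were a block for the replicate number, normalization, dim probe sets, the choice of probe set, the variance model, the threshold and leaving out arrays.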

Additional observations from a re-analysis of the deposited data

Results flagged for a closer look

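Of 94 groups of 4 arrays (47 members in both groups), 2 held an array that stood apart from the other 3 by Dixon's criterion at the 95% level, which chance alone gives in about 1 group in 20. Herc6, the ligase for ISG15, read 8.98 on control replicate 4, against 8.32 to 8.37 on the other control arrays. Ddx58, the RNA sensor RIG-I, read 7.98 on daDREAM replicate 3, against 8.20 to 8.24 on the other daDREAM arrays.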

How the results depend on the processing

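Under all 19 refits the members that passed were all lower, and the members' median stayed between -0.36 and -0.29. Of the 12 members, Oasl2 passed in all 19. The number of members past the test was 3 with the arrays highest in Gh left out and 6 with those highest in Acta1 left out. It was 1 by an unequal-variance test on each gene and 8 to 13 when 1 array was omitted. These refits use fewer arrays or a weaker variance estimate, but why the counts fell was not tested. With the Gh arrays left out, differences moved too. Ifit1 went from -1.155 to -0.93 and Ifit3 from -0.895 to -0.64, while Oas2 went from -0.37 to -0.51. All genes past the test numbered 98 (Gh), 171 (Acta1) and 49 (unequal variance). They numbered 213 with the Xist arrays left out and 181 at an adjusted p under 0.01. Without single arrays they numbered 229 to 349, the lowest being without daDREAM replicates 2 (229) and 3 (236). Probe sets past the test numbered 392, 649 and 166, 621 at the stricter threshold and 755 to 1271 without single arrays. Other pathway genes numbered 0, 1 and 0 (by the unequal-variance test), 2 with the Xist arrays left out, 2 at the stricter threshold, 3 with the second brightest probe set and 3 to 7 without single arrays.

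With the replicate number as a block, 20 members, 672 genes and 2017 probe sets passed. Deviations of same-numbered arrays correlated at 0.21, 0.01, 0.33 and 0.36. Those of differently numbered arrays ran from -0.28 to 0.31. Replicates 3 and 4 of each group correlated best with their own number, while replicate 2 of each group did not. These values do not settle whether the numbers pair the arrays. No pairing is stated, so group stayed the only term of the main fit.

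Signs turned for 11 members. With the second brightest probe set the difference was 0.04 for Rsad2, 0.055 for Rtp4, 0.0275 for Psmb8, 0.12 for Tap1, 0.21 for Ifnar1 and -0.0025 for Irf8. With the mean of probe sets it was 0.065 for Ifnar1 and 0.0525 for Ifnar2. After renewed quantile normalization it was 0.0303 for Mx1 and -0.0128 for Bst2. With the Gh arrays left out it was 0.13 for Gbp6, 0.0033 for Irf9 and 0.075 for Psmb8, with the Acta1 arrays left out 0.0525 for Mx1 and with the Xist arrays left out -0.02 for Bst2. Without single arrays it ran from -0.0758 to 0.0108 for Mx1, from -0.0683 to 0.045 for Bst2 and from -0.23 to 0.0358 for Psmb8. Of these only Rtp4 had passed, and the cause was not tested. Members near background, such as Mx1 and Oas3, limit what can be read.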
